A study of Mus musculus with 4 samples.

Results

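The enzymes described here write or erase methyl groups on histone lysines, or remove acetyl and other acyl groups from lysines. They were taken as every row of the count tables whose symbol starts with Kdm, Kmt, Hdac or Sirt followed by a digit, apart from the Y-linked gene Kdm5d, which gave 46 of 56832 gene rows. The rows comprised 19 with a Kdm symbol, 8 with Kmt, 12 with Hdac and 7 with Sirt. Of these, 3 do not encode an enzyme, namely the pseudogenes Kdm4dl and Hdac1-ps and the antisense transcript Kdm6bos. The study set graft-derived myeloid cells of the brain beside naive microglia, the brain's own macrophages, and only its 4 naive microglia libraries were used. They came from brains of female C57BL/6 mice with no intervention, described in the design as littermates without a transplant, and the cells were sorted through a gate for CD11b and low to intermediate CD45. The graft-derived groups were not analysed here, and all 4 libraries form 1 group. The labels give no age and do not say that each library is a separate animal, so p-values measure only the spread between these libraries, which may be technical.

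Lysine methylation on histones is read by position. Methylation of lysine 4 of histone H3 (H3K4) marks promoters and enhancers, H3K36 marks transcribed gene bodies, and H3K9, H3K27 and H4K20 are linked mostly to silencing. Kmt genes encode methyltransferases, Kdm genes demethylases that need either flavin or iron and 2-oxoglutarate, Hdac genes zinc-dependent deacetylases that act in corepressor complexes, and Sirt genes deacylases that consume NAD. In macrophages these enzymes are known for setting enhancers during differentiation and for restraining or permitting inflammatory genes.

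The libraries held 20360121 to 23292655 reads assigned to genes, and levels are given as CPM, the read count scaled to a common total of reads assigned to genes. Where no read was found, up to 3 reads remain possible, or 0.129 to 0.147 CPM, and such limits cover counting error only. All 14 microglia markers checked were present at 1 CPM or more in every library, with summed levels of 36782 to 65891 CPM. Summed markers of other cells were lower, at 298 to 884 CPM for border macrophages, 300 to 2435 CPM for neutrophils, 517 to 1875 CPM for oligodendrocytes, 240 to 504 CPM for astrocytes, 70.0 to 190 CPM for monocytes, 81.6 to 150 CPM for endothelial cells, 22.3 to 86.1 CPM for B cells, 19.3 to 41.5 CPM for neurons and 0.0485 to 10.2 CPM for T and NK cells, and the B cell marker Ms4a1 was at 0 in every library. The libraries differed in ways that touch the results below. Replicates 4 and 1 held 13944 and 14850 genes with a count, fewer than replicates 2 and 3, which held 18978 and 18431. Of the 9794 genes with a mean of 5 CPM or more, 14.6% were in replicate 4 below 10% of their lowest value in the other libraries, whereas the share was 3.18% for replicate 1, 0.0919% for replicate 2 and 0.184% for replicate 3. The 18 immediate early genes checked, such as Fos and Egr1, which respond rapidly to stimuli, had summed levels of 4978, 58638, 50421 and 5474 CPM in replicates 1 to 4.

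Most of these enzymes were transcribed in microglia. Of the 46 rows, 29 (63%), among them the pseudogene Hdac1-ps, reached 1 CPM in every library, against 14.8% of all gene rows and 38.8% of gene rows with a count in any library. The gene rows include pseudogenes and noncoding genes of many kinds, whereas only 3 members do not encode an enzyme. These shares therefore compare unlike classes of genes, and the share of protein-coding genes is not given. The detected rows were 11 of 19 Kdm, 4 of 8 Kmt, 8 of 12 Hdac and 6 of 7 Sirt rows. Without replicate 4, 38 rows reached 1 CPM in every remaining library, because 9 rows were under it in replicate 4 alone. The 2 rows with no count in any library were Kdm4d, a demethylase known from testis, and the pseudogene Kdm4dl. Hdac7, a class IIa deacetylase, had 0, 7, 1 and 0 reads in replicates 1 to 4, so it was close to the floor everywhere. Its gene overlaps Slc48a1 on the opposite strand, so its low count is uncertain. Kdm8, a jumonji-domain enzyme, gave 0, 1.51, 3.26 and 0 CPM, and Kdm6bos had 0, 30, 27 and 0 reads.

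**Figure D1:**
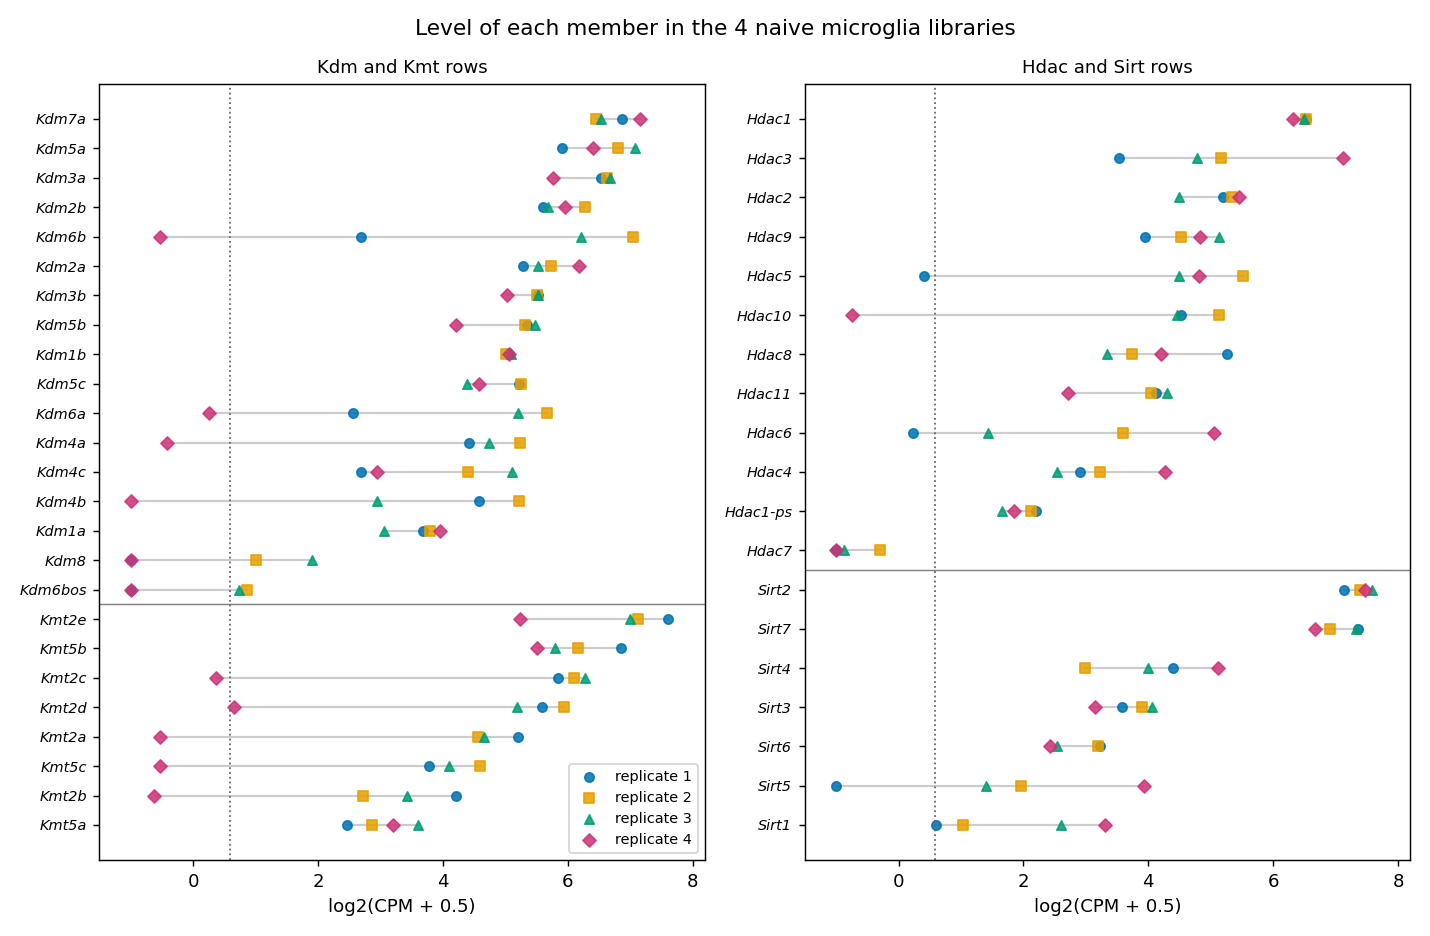
Level of the 44 rows with a count in each of the 4 libraries, on the log2(CPM + 0.5) scale, with Kdm and Kmt rows on the left and Hdac and Sirt rows on the right, ordered by mean CPM within each family. Grey bars span the lowest to the highest library, and the dotted line marks 1 CPM. Kdm1b and Hdac1 occupy narrow ranges, while Kdm6b, Kmt2c and Hdac10 reach from 132, 77.4 and 34.6 CPM in their highest library to under 1 CPM in replicate 4.

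The H3K4 methyltransferases with a Kmt2 symbol, Kmt2a to Kmt2d, were well above 1 CPM in replicates 1 to 3 and had 3 to 22 reads each in replicate 4. Kmt2a and Kmt2b, which act mainly at promoters, and Kmt2c and Kmt2d, which act mainly at enhancers, are the catalytic subunits of MLL complexes. Their summed level was 159, 159 and 149 CPM in replicates 1 to 3 and 2.21 CPM in replicate 4. The first 3 libraries therefore lay within a narrow range and the remaining library far below it. Kmt2c gave 57.1, 68.4, 77.4 and 0.786 CPM, and Kmt2d gave 47.7, 60.9, 36.1 and 1.08 CPM, in replicates 1 to 4. Kmt2a gave 36.2, 23.2, 24.9 and 0.196 CPM. Kmt2b gave 18.1, 6.07, 10.2 and 0.147 CPM, the last from 3 reads. In a bulk library, fewer cells of a type and less RNA per cell cannot be told apart. All 4 genes belong to the 14.6% of genes that were far lower in replicate 4, and the part that the lower number of genes detected in that library plays in these values was not tested.

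Their relative Kmt2e, a SET domain protein for which methyltransferase activity is doubtful, was the highest Kmt gene per kb of exon. It gave 195, 139, 127 and 37.4 CPM in replicates 1 to 4, so replicate 4 was again lowest, but well above the floor. Kmt2e overlaps Srpk2 on the opposite strand, so part of its reads may belong to that gene. Among the enzymes of H4K20, Kmt5b, which adds further methyl groups to a site that already carries one, gave 115, 71.4, 54.9 and 44.9 CPM. Kmt5a, which adds the first, gave 5.05, 6.82, 11.6 and 8.69 CPM. Kmt5c, the partner of Kmt5b in silent chromatin, gave 13.2, 23.7, 16.7 and 0.196 CPM, with 4 reads in replicate 4.

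Promoters are shown for Kmt2a, Kmt2c and Kmt2d, the 3 of the 4 low in replicate 4 that the promoter table holds, with those of Kdm6a, which ranged widely over the libraries, and of Kdm1b, which had the lowest coefficient of variation of the 39 members with a mean of 5 CPM or more. Each is the 250 bases before the annotated start, written 5′ to 3′ on the gene's strand, from RefSeq on GRCm38.p6, which is not the build of the count files. Capitals mark matches on either strand to GGGCGG, the core of the SP family site, and to CACGTG, an E-box; neighbouring GGGCGG matches can share bases. Kmt2a lies at chr9:44881290-44881539, Kmt2c at chr5:25498784-25499033 and Kmt2d at chr15:98871206-98871455, all on the minus strand. Kdm6a lies at chrX:18162325-18162574 and Kdm1b at chr13:47043249-47043498, both on the plus strand.
Kmt2a: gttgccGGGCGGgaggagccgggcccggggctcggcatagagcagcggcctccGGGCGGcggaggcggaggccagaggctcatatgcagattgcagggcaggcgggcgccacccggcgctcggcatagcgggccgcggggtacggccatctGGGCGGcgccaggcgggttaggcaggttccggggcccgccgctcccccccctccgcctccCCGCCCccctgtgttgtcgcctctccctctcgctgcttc
Kmt2c: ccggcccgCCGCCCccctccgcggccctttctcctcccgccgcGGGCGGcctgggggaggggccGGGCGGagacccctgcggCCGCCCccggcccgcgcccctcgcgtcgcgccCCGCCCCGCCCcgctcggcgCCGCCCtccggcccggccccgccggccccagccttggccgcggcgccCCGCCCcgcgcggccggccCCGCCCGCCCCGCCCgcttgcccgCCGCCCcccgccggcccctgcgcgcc
Kmt2d: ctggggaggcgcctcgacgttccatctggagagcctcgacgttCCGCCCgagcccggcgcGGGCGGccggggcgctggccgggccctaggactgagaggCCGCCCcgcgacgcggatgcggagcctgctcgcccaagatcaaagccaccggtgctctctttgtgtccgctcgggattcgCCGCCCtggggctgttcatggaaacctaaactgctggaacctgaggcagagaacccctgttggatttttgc
Kdm6a: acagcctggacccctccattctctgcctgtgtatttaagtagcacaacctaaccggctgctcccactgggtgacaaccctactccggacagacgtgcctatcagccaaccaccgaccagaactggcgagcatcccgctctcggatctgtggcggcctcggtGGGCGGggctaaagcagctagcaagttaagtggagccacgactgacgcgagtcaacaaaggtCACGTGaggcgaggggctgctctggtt
Kdm1b: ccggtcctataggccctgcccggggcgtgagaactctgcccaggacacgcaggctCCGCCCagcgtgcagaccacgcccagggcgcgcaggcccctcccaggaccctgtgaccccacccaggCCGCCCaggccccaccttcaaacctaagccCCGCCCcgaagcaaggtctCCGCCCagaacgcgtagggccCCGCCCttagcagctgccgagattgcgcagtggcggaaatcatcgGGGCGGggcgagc

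These windows are rich in CpG, the dinucleotide of unmethylated island promoters. Kmt2c held 48 CpG in 250 bases, Kmt2a 29, Kmt2d 26, Kdm1b 22 and Kdm6a 15. Over the 48 promoters of the 33 member genes that the table holds, the median was 16.5 CpG, against 6 over all 32851 promoters. GGGCGG occurred 12 times in the Kmt2c window, 6 times in that of Kdm1b, 4 times each in those of Kmt2a and Kmt2d and once in that of Kdm6a, so it was present in every window shown. Among windows not shown, it was absent from those of Kmt5c and Kdm4a, low in replicate 4, and of the steadier genes Kdm1a and Kdm5c. GGGCGG occurred in 30 of 48 member promoters (62.5%) and in 32.7% of all promoters. It holds only G and C, and the median GC content was 61% for member promoters and 52.4% for all. The 2 shares therefore compare promoters of unlike base composition, whose part in the difference was not tested. Some genes have several promoters, and by gene it occurred in 24 of 33 members. CACGTG occurred in 3 member promoters (6.25%) and in 6.02% of all, CCGGAAG, an ETS core, in 6 (12.5%) and 6.91%, and TGANTCA, the AP-1 site, in 4 (8.33%) and 6.75%. The cyclic AMP response element TGACGTCA and the YY1 core AAGATGGC occurred in none of the member windows and in 1.55% and 1.56% of all, and the NRF1 site in 1 member window (2.08%) and 0.782% of all. These matches describe letters in the windows and are not evidence of binding.

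The demethylases that oppose the H3K4 methyltransferases were well above the floor in every library. Kdm5a, Kdm5b and Kdm5c, which remove methyl groups from H3K4, summed to 137, 188, 199 and 125 CPM in replicates 1 to 4. Kdm5a gave 59.9, 111, 135 and 83.9 CPM. Kdm5b gave 40.2, 39.5, 43.8 and 18.0 CPM, with the first 3 libraries close together and replicate 4 lowest. The X-linked gene Kdm5c, known to escape X inactivation, gave 36.6, 37.5, 20.5 and 23.5 CPM.

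The flavin-dependent demethylases summed to 45.3, 45.3, 41.4 and 47.7 CPM in replicates 1 to 4, and most of that sum was Kdm1b. Kdm1b, which acts on H3K4 in gene bodies, gave 33.0, 31.9, 33.6 and 32.7 CPM in replicates 1 to 4. Its coefficient of variation over libraries was 2.08%, below the 3.75% that counting error alone gives at its mean count. Kdm1a, the LSD1 enzyme of the CoREST corepressor complex, gave 12.3, 13.4, 7.81 and 15.0 CPM, a wider range than that of Kdm1b. Kdm1a overlaps Luzp1 and Kdm1b overlaps Dek, each on the opposite strand.

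The H3K27 demethylases summed to 11.4, 182, 110 and 0.884 CPM in replicates 1 to 4, a wider range than any other role with reads in every library. Kdm6b, which is known to be induced in activated macrophages, gave 5.97, 132, 73.8 and 0.196 CPM in replicates 1 to 4, the last from 4 reads. Its X-linked relative Kdm6a, also known as UTX and a partner of Kmt2c and Kmt2d in their complexes, gave 5.39, 50.1, 36.2 and 0.688 CPM. Both genes were high in replicates 2 and 3, intermediate in replicate 1 and lowest in replicate 4. The antisense row Kdm6bos had 0, 30, 27 and 0 reads in replicates 1 to 4, where Kdm6b had 123, 2977, 1720 and 4, and without a stated strand setting reads of the pair cannot be told apart. Border macrophage markers summed to 298, 807, 884 and 458 CPM in replicates 1 to 4, and microglia markers to 65490, 36782, 36970 and 65891 CPM. The immediate early genes summed to 58638 and 50421 CPM in replicates 2 and 3 and to 4978 and 5474 CPM in replicates 1 and 4, and oligodendrocyte markers to 1844 and 1875 CPM and 517 and 629 CPM. The part of any of these in the levels of Kdm6a and Kdm6b was not tested.

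Enzymes that act on H3K9 and H3K36 differed in how far they ranged. Kdm3a, an H3K9 demethylase known to respond to hypoxia, gave 92.0, 98.5, 102 and 53.6 CPM in replicates 1 to 4, and its paralog Kdm3b gave 45.6, 45.0, 45.7 and 32.2 CPM. For both, replicates 1 to 3 were close and replicate 4 was lowest. The H3K36 demethylases Kdm2a and Kdm2b, the latter also a recruiter of Polycomb complexes to CpG islands, gave 38.3, 52.8, 45.7 and 71.9 CPM and 48.2, 76.8, 51.2 and 61.8 CPM. Neither was lowest in replicate 4. In the Kdm4 group, which acts on H3K9 and H3K36, Kdm4a gave 20.9, 37.4, 26.2 and 0.246 CPM and Kdm4b 23.3, 36.9, 7.21 and 0 CPM. Kdm4c differed from both in its order, at 5.97, 20.6, 34.0 and 7.22 CPM. Kdm7a, a demethylase of H3K9 and H3K27 with a plant homeodomain finger, gave 117, 87.2, 92.0 and 142 CPM, with replicate 4 highest.

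**Figure D2:**
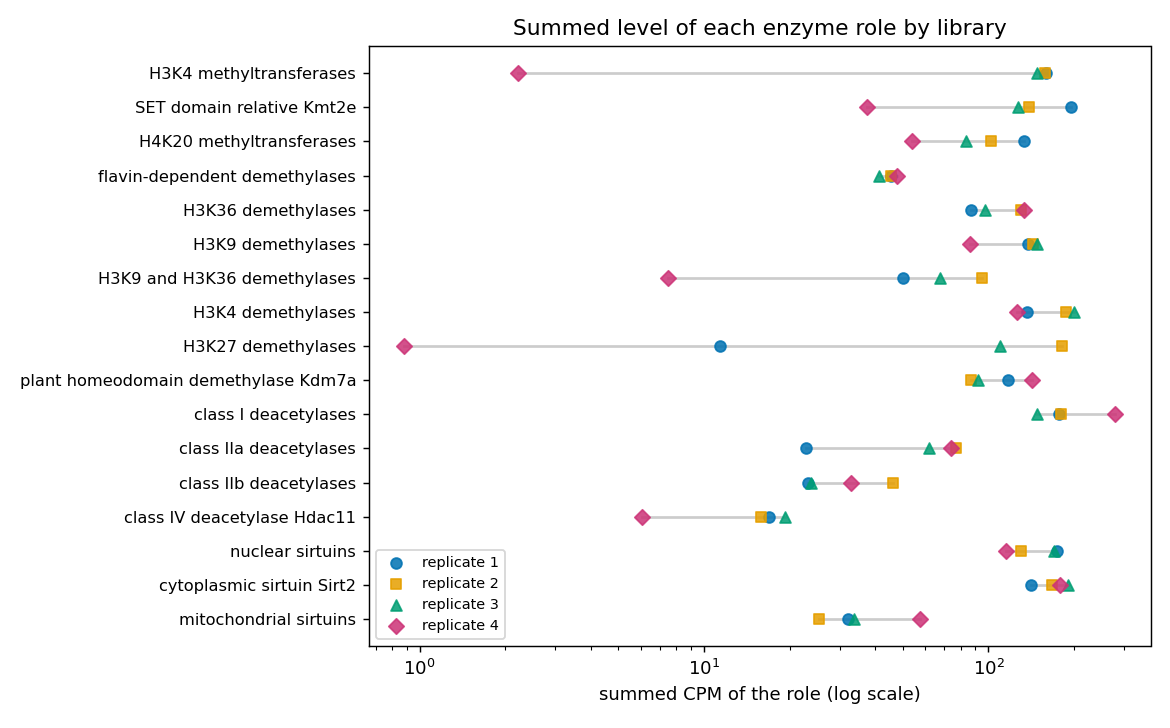
Summed CPM of the enzymes of each role in the 4 libraries, on a log scale, with grey bars from the lowest to the highest library. The H3K4 methyltransferases Kmt2a to Kmt2d lie at 149 to 159 CPM in 3 libraries and at 2.21 CPM in replicate 4, and the H3K27 demethylases span 0.884 to 182 CPM, while the flavin-dependent demethylases stay between 41.4 and 47.7 CPM.

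Among the deacetylases, the class I enzymes made up most of the Hdac reads. Hdac1, a catalytic subunit of the SIN3, NuRD and CoREST complexes, gave 91.6, 91.6, 89.6 and 78.9 CPM in replicates 1 to 4, with replicate 4 slightly below the rest. Hdac2, its close paralog in the same complexes, gave 36.2, 40.1, 21.9 and 43.4 CPM. Hdac3, the enzyme of the NCoR and SMRT complexes, varied far more, at 11.1, 35.5, 27.1 and 138 CPM, so that it was below Hdac1 in 3 libraries and above it in replicate 4. The X-linked gene Hdac8, whose protein deacetylates cohesin, gave 37.8, 12.8, 9.66 and 17.9 CPM, with replicate 1 highest. The pseudogene row Hdac1-ps gave 2.66 to 4.12 CPM, and because it is a near copy of Hdac1 the reads of the pair are uncertain.

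Class IIa deacetylases, which shuttle between nucleus and cytoplasm and bind MEF2 factors, summed to 22.8, 77.0, 61.8 and 74.0 CPM in replicates 1 to 4. Hdac9 gave 15.0, 22.4, 34.6 and 27.8 CPM and Hdac4 gave 6.99, 8.86, 5.28 and 18.7 CPM. Hdac5 gave 0.825, 45.4, 21.9 and 27.5 CPM, so it was near the floor in replicate 1 and clearly present in the rest. The class IIb enzyme Hdac6, a cytoplasmic tubulin deacetylase whose gene is X-linked, was likewise lowest in replicate 1, at 0.679, 11.6, 2.19 and 32.7 CPM. Its relative Hdac10 gave 22.6, 34.6, 21.6 and 0.0982 CPM, with 2 reads in replicate 4. The class IV enzyme Hdac11 gave 17.0, 15.9, 19.3 and 6.04 CPM.

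Sirtuin transcripts were dominated by 2 genes. Sirt2, mostly cytoplasmic and also abundant in oligodendrocytes, gave 141, 167, 190 and 178 CPM in replicates 1 to 4, and Sirt7, a nucleolar enzyme, gave 164, 120, 159 and 101 CPM. Both stayed within 2-fold over the libraries. Reads of Sirt2 may include some of Nfkbib, which overlaps it on the opposite strand, and those of Sirt7 some of Mafg, which overlaps it on the same strand. Oligodendrocyte markers summed to 517, 1844, 1875 and 629 CPM in replicates 1 to 4, and their part in the level of Sirt2 was not tested.

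Sirt1, the best studied nuclear sirtuin, gave 1.02, 1.55, 5.54 and 9.38 CPM in replicates 1 to 4, the lowest sirtuin per kb by mean. Sirt6, which acts on H3K9 acetylation, gave 8.88, 8.64, 5.28 and 4.86 CPM. Of the mitochondrial sirtuins, Sirt3 gave 11.5, 14.4, 16.1 and 8.40 CPM and Sirt4 gave 20.6, 7.44, 15.4 and 34.3 CPM. Sirt5, a desuccinylase, had no read in replicate 1 and gave 3.41, 2.15 and 14.8 CPM in replicates 2 to 4. Summed sirtuin levels were close in all libraries, at 347, 322, 394 and 351 CPM, the narrowest range of the 4 families (1.22-fold). The sums spanned 1.61-fold for Kdm, 1.62-fold for Hdac and 5.22-fold for Kmt rows.

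Levels of different genes were compared per kb of exon, since longer transcripts give more reads. On this scale Sirt2 was the highest of all at 33.6 ± 4.19 CPM per kb (SD, n = 4), followed by Sirt7 at 26.4 ± 5.91 and Hdac1 at 25.5 ± 1.77. Hdac3 stood at 13.1 ± 14.2 and Hdac2 at 7.91 ± 2.12 CPM per kb. Sirt4 stood at 8.10 ± 4.71 CPM per kb. The Kmt genes were led by Kmt2e at 11.9 ± 6.24 CPM per kb, Kmt5b at 4.86 ± 2.11 and Kmt5c at 3.36 ± 2.46, and the Kdm genes by Kdm7a at 10.9 ± 2.52, Kdm3a at 10.5 ± 2.72 and Kdm6b at 7.62 ± 8.96. Kdm7a was above Kdm3a in only 2 of 4 libraries, and per kb of the longest transcript Kdm3a led at 17.8, before Kdm2b and Kdm7a at 11.5 each. The MLL enzymes were low per kb, from 2.51 ± 1.70 for Kmt2c to 0.898 ± 0.784 for Kmt2b. These means include replicate 4, where each of these genes had 3 to 22 reads. Neighbours in these orders mostly did not keep their order in every library. They did so in 1 of 15 neighbouring pairs of Kdm genes, 2 of 7 of Kmt, 2 of 10 of Hdac and 2 of 6 of Sirt genes.

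Related enzymes were also compared within each library as 28 pairs, as log2 of their ratio per kb after adding 0.5 to each count. In 13 pairs the order was the same in 4 of 4 libraries, and in 15 it was mixed. Without replicate 4, 20 of the 28 pairs kept 1 order. An exact test that flips the signs of the 4 ratios (two-sided permutation) has 16 patterns, so its smallest p is above 0.05 and none of the pairs is called different. A ratio is given for the 20 pairs in which both genes had more than 3 reads in every library.

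Among paralogs with a single order, Hdac1 over Hdac2 gave 1.72, 1.57, 2.41 and 1.24 in replicates 1 to 4, a mean of 1.73 ± 0.49 (SD, n = 4). Kdm3a exceeded Kdm3b by 1.79 ± 0.19 on the log2 scale, with 1.51 to 1.94 over the libraries. Kdm5a exceeded Kdm5b by 1.70 ± 0.68, and Kdm1a over Kdm1b gave -1.39 ± 0.43. Among sirtuins, Sirt1 over Sirt2 gave -5.87 ± 1.34 and Sirt6 over Sirt7 -3.43 ± 0.46. Kmt5a over Kmt5b gave -1.65 ± 1.05. Kmt2e exceeded Kmt2a by 3.10, 3.26, 3.03 and 8.08, a mean of 4.37 ± 2.48. Without replicate 4, which had 4 reads of Kmt2a, the mean was 3.13 ± 0.12. The orders of Kdm2a under Kdm2b (-0.62 ± 0.32) and Sirt3 under Sirt4 (-1.78 ± 1.28) depend on the exon lengths. On counts alone the means were -0.20 and -0.46, with mixed signs.

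The mixed pairs include those of the H3K27 and enhancer enzymes. Kdm6a over Kdm6b gave -0.42, -1.66, -1.30 and 1.42 in replicates 1 to 4, so Kdm6b was higher in 3 libraries and lower in replicate 4, where the genes had 14 and 4 reads. Kmt2c over Kmt2d gave 0.23, 0.14, 1.07 and -0.47. Hdac3 over Hdac1 gave -3.27, -1.60, -1.96 and 0.58. Hdac4 over Hdac5 gave 2.20, -3.20, -2.90 and -1.40, with replicate 1 apart from the others.

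**Figure D3:**
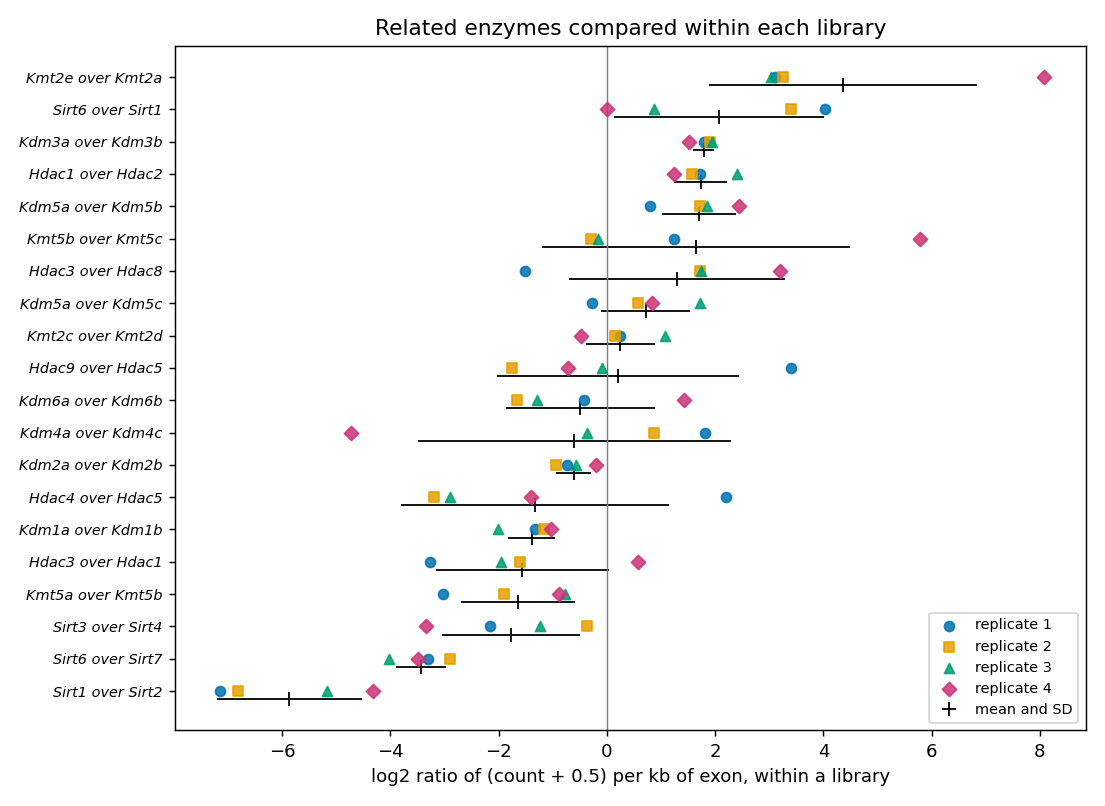
Log2 ratio of the first over the second gene per kb of exon in each of the 4 libraries, for the 20 pairs with more than 3 reads of both genes in every library, with the mean and SD in black below the points. The points of Kdm3a over Kdm3b, Hdac1 over Hdac2 and Sirt6 over Sirt7 stay on 1 side of 0, and those of Kdm6a over Kdm6b lie on both sides.

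The spread of each gene between libraries was then set against the trend at its level in an intercept-only edgeR quasi-likelihood fit over 9075 genes. No member was called at an adjusted p under 0.05, and neither was any other gene (0% called). With 4 libraries this does not show that the spread of a gene equals the trend. At an unadjusted p under 0.05, 395 genes (4.35%) varied more than the trend, among them 6 of the 33 members tested (18.2%), and DESeq2 marked no gene as a dispersion outlier. The 6 members were, from the smallest p, Kmt2c, Kdm6a, Kmt2d, Hdac5, Hdac3 and Hdac6. Each had an adjusted p of 0.944 in edgeR's quasi-likelihood test with Benjamini-Hochberg adjustment. In that test without replicate 4, the unadjusted p was 0.593 for Kmt2c, 0.445 for Kmt2d and 0.149 for Hdac3. It stayed under 0.05 for Kdm6a, Hdac5 and Hdac6. Without replicate 1 it was 0.486 for Hdac5, 0.101 for Hdac6 and 0.0754 for Hdac3. It then stayed under 0.05 for Kmt2c, Kdm6a and Kmt2d. The other 13 rows, including Kdm6b, Kmt2a, Kmt2b, Kdm4a, Kdm4b, Kmt5c and Hdac10, did not pass the filter on low counts, which needs reads in every library. With no filter, 44 members were tested and 5 had an unadjusted p under 0.05, against 467 of all 21681 genes tested. The median log2 ratio of a gene's spread to the trend was -0.10 over the members tested and -0.09 over all genes tested.

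Spread was therefore described by fixed limits of fold for the 39 members with a mean of 5 CPM or more. The highest library was under 2 times the lowest for 14 of them (35.9%), against 29.6% of all 9794 genes at that level. These steady members were Hdac1, Hdac2, Kdm1a, Kdm1b, Kdm2a, Kdm2b, Kdm3a, Kdm3b, Kdm5c, Kdm7a, Sirt2, Sirt3, Sirt6 and Sirt7. No Kmt gene was among them. Without replicate 4, 24 of 37 members stayed within 2-fold, against 59.4% of all genes.

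In replicate 4, 9 of the 39 members (23.1%) lay below 10% of the lowest of the other libraries, against 14.6% of all genes. They were Kmt2a, Kmt2b, Kmt2c, Kmt2d, Kmt5c, Kdm4a, Kdm4b, Kdm6b and Hdac10. The longest annotated transcripts of these 9 had a median GC content of 58.4% (47.6 to 60.0%) and a median length of 6654 bases (2774 to 19823), against 47.9% (39.6 to 59.8%) and 4920 bases (1794 to 10944) for the other 30 members, and the part of these properties in the result was not tested. In replicate 1, 2 members (5.13%, against 3.18% of all genes) lay below that limit, Hdac5 and Sirt5, and in replicates 2 and 3 none did (0.0919% and 0.184% of all genes). No member lay over 10 times the highest of the other libraries in any library (0.0408%, 0%, 0.0102% and 0.398% of all genes in replicates 1 to 4). The 2 highest libraries were replicates 2 and 3 for 9 members (23.1%, against 22.9% of all genes) replicates 2 and 4 for 9 (23.1%, against 11.5%) and replicates 1 and 2 for 8 (20.5%, against 16.4%). They were replicates 1 and 3 for 7 members (17.9%, against 13%), and replicates 1 and 4 or 3 and 4 for 3 members each (7.69%, against 24.8% and 11.4%).

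**Figure D4:**
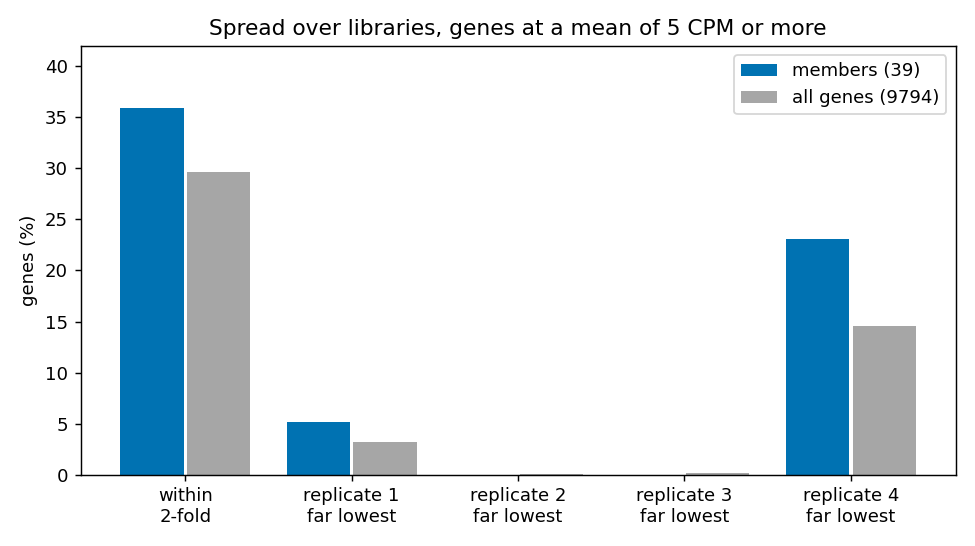
Share of genes, in percent, among 39 members (blue) and all 9794 genes (grey) with a mean of 5 CPM or more, that stayed within 2-fold over the 4 libraries or lay below 10% of the lowest of the other libraries in the library named. Members reach 35.9% within 2-fold and 23.1% far lowest in replicate 4, against 29.6% and 14.6% of all genes.

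The partners of these enzymes were read from 8 lists of 116 genes. Of these, 79 reached 1 CPM in every library, against 14.8% of all gene rows and 38.8% of gene rows with a count in any library. The gene rows include noncoding genes, so these shares compare unlike classes of genes. This holds for the detection counts by list below as well. For spread, 82 partner genes were tested and none was called by edgeR, with 1 at an unadjusted p under 0.05. In replicate 4, 21 of the 99 partner genes with a mean of 5 CPM or more lay below 10% of the lowest of the other libraries, against 14.6% of all genes. By list these were 7 of 19 other histone methyltransferases and 3 of 12 further MLL and SET1 complex genes. They were 1 of 10 genes of PRC2, the H3K27 methyltransferase complex, and 2 of 7 other jumonji-type genes. In the remaining lists they were 2 of 26 corepressor subunits, 2 of 13 acetyltransferases, 2 of 6 NAD genes and 2 of 6 methyl donor genes.

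The list of further MLL and SET1 complex genes holds shared scaffold subunits, subunits of either complex and the SET1 catalytic subunits Setd1a and Setd1b. Of its 14 genes, 9 reached 1 CPM in every library. At a mean of 5 CPM or more, 3 of 12 were far lowest in replicate 4, against 14.6% of all genes. Setd1b, which like the Kmt2 enzymes methylates H3K4, gave 30.2, 29.5, 28.2 and 12.5 CPM in replicates 1 to 4, and Setd1a gave 1.75, 3.63, 3.31 and 0 CPM. Wdr5, a core scaffold subunit, gave 37.5, 44.6, 34.9 and 0.0491 CPM in replicates 1 to 4. Rbbp5, also far lowest in replicate 4, gave 20.2, 24.1, 32.4 and 1.13 CPM. Ash2l, another core subunit, gave 50.1, 52.9, 64.1 and 64.5 CPM and Dpy30 gave 31.7, 29.1, 31.6 and 48.3 CPM. Men1, the menin subunit of the Kmt2a and Kmt2b complexes, gave 43.7, 29.1, 14.9 and 52.9 CPM. Per kb of exon the highest were Dpy30 at 30.7 ± 7.70, Cxxc1 at 12.6 ± 2.17 and Men1 at 9.17 ± 4.35 CPM per kb (SD, n = 4).

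The H3K27 methyltransferase complex PRC2, which the Kdm6 enzymes oppose, had 9 of 12 genes at 1 CPM in every library. Its catalytic subunit Ezh1, known from cells that do not divide, gave 106, 54.2, 36.4 and 17.7 CPM in replicates 1 to 4, and Ezh2, known from dividing cells, gave 13.1, 3.90, 5.67 and 0.0491 CPM. Ezh1 was the higher in every library, and Ezh2 had 1 read in replicate 4. Eed, a core subunit, gave 64.2, 109, 103 and 147 CPM. The histone chaperones Rbbp7 and Rbbp4, shared with deacetylase complexes, stood at 48.5 ± 18.0 and 23.5 ± 7.21 CPM per kb (SD, n = 4), and Eed at 27.6 ± 8.83. Other histone methyltransferases reached 1 CPM in every library for 13 of 22 genes, led per kb by the arginine methyltransferases Prmt1 at 25.8 ± 6.25, Prmt2 at 12.2 ± 5.64 and Prmt5 at 10.9 ± 2.38 CPM per kb. Of 8 other jumonji-type genes 5 did so, led by Jmjd1c at 11.4 ± 3.34 CPM per kb, Riox1 at 10.5 ± 8.23 and Jmjd6 at 10.3 ± 4.53.

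Corepressor subunits, which carry Hdac1, Hdac2 and Hdac3 to chromatin, were detected at 1 CPM in every library for 24 of 31 genes. The highest per kb were Sap30 of the SIN3 complex at 37.2 ± 14.8, Mta2 of the NuRD complex at 35.5 ± 8.18 and Gps2 of the NCoR complex at 34.7 ± 3.98 CPM per kb (SD, n = 4). Rcor2, a CoREST subunit known from neural cells, had no read. The NuRD helicase Chd4 gave 50.0, 126, 126 and 12.1 CPM in replicates 1 to 4 and was the only partner gene at an unadjusted p under 0.05 (edgeR quasi-likelihood test, adjusted p = 0.944), with replicates 2 and 3 highest. Histone acetyltransferases, which the deacetylases oppose, were detected for 11 of 13 genes, led by Kat5 at 16.02 ± 2.97, Hat1 at 14.5 ± 2.76 and Kat7 at 13.8 ± 1.67 CPM per kb. Genes of NAD metabolism, the cofactor of sirtuins, reached 1 CPM in every library for 4 of 9. The list includes Nadk, which converts NAD to NADP, and Cd38, which consumes NAD, beside enzymes that make it. The highest per kb were Nadk at 26.9 ± 3.18, Nampt, which makes the NAD precursor NMN, at 9.23 ± 2.31 and Nmnat1 at 5.43 ± 5.82 CPM per kb (SD, n = 4). Those that supply the methyl donor did so for 4 of 7, with Mat2a at 46.4 ± 16.2, Mat2b at 31.4 ± 13.1 and Shmt2 at 8.65 ± 5.37 CPM per kb.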

How the data were processed

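RNA was extracted from sorted brain cells with an RNA integrity number above 8 and made into low-input cDNA libraries, per the labels' protocols. The authors deposited raw read counts per gene symbol, 1 table per library. Reads were processed with HTSeq 0.11.2, STAR 2.7.10a and SAMtools 1.16.1 on GRCm39, per the submitters' processing notes. Neither the annotation nor the strand setting is stated in the sources used here, though words in the names of the deposited tables may stand for unstranded counting. By whole gene span, introns included, 10 members overlap a gene with a mean of 100 reads or more. Their counts may therefore be too high or too low. The rows at the foot of each table that name no gene (19.9 to 22.7% of reads) were left out.

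CPM used reads assigned to genes. Library pairs differed beyond sampling noise, with a chi-square per degree of freedom of 47.8 to 377. The lowest value was that of replicates 2 and 3, and all other pairs had 224 to 377. Exon lengths were unions of GENCODE M21 exons on GRCm38, matched by symbol for 89.8% of rows (99.3% of counts). Spread between libraries was tested with edgeR 4.0.16 in R 4.3.3 (filterByExpr with a minimum count of 10, TMM, trended dispersion, upper-tail F test against the trend, Benjamini-Hochberg over 9075 genes), with DESeq2 1.42.0 as an alternative. The fit was tested on simulated data, where it missed most of the planted changes at the observed spread, so a gene not called may still vary. The members, lists, pairs and tests were chosen with earlier results of these data known, and the limits of 2-fold and 10% after seeing the values. All members could be named, and of each partner list the 3 highest per kb, any called gene and genes of the pairs. Wdr5, Rbbp5, Ash2l, Setd1a, Setd1b, Cd38, Rcor2 and Chd4 were named after their values were seen. Counting limits cover counting error only, because amplified reads are not independent molecules. Python 3.11.15, pandas 2.3.3 and matplotlib 3.10.9 did the rest.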

Additional observations from a re-analysis of the deposited data

Results flagged for a closer look

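In 6 of 61 sets of 4 values (each member's CPM, and the summed CPM of each family and each role of more than 1 gene), 1 library stood apart by Dixon's ratio, the gap to the nearest other library over the whole range. Chance alone gives about 1 in 20 for independent sets, but these sets overlap, as the sums contain single members. The share of all genes that this rule flags was not computed. Replicate 4 was the lowest library for 20 of the 39 members and 39.6% of all genes with a mean of 5 CPM or more. Being lowest is a different rule, so whether the flags are particular to the members was not tested. In 5 of the 6 sets the library apart was the lowest, and it was replicate 4 each time. These were Hdac1 (ratio 0.843; 78.9 CPM against 89.6 to 91.6 CPM), Kdm3b (0.95; 32.2 against 45.0 to 45.7 CPM), Kdm5b (0.831; 18.0 against 39.5 to 43.8 CPM), the summed H3K4 methyltransferases Kmt2a to Kmt2d (0.935; 2.21 against 149 to 159 CPM) and the summed H3K9 demethylases Kdm3a and Kdm3b (0.834; 85.9 against 138 to 148 CPM). For Hdac1 and Kdm3b the ratio is large mainly because the other 3 libraries lay close together. The sixth set was Hdac7, highest in replicate 2 (0.862), where it had 7 reads against 0 to 1.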

How the results depend on the processing

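No paired analysis was possible because the labels give 1 group of libraries. No gene was called in the spread test under DESeq2 size factors, library totals, no filter, a robust prior, DESeq2 dispersion outliers or with any replicate left out (0 of 33 to 44 members, 0 of 9075 to 21681 genes and 0 of 82 to 114 partners), and in the edgeR settings 3 to 7 members, 380 to 483 genes and 1 to 6 partners had an unadjusted p under 0.05. With 1 replicate left out, 29 to 38 members reached 1 CPM in every library, 14 to 24 members stayed within 2-fold and 13 to 20 pairs kept 1 order, the highest value of each coming without replicate 4. At a limit of 0.5 CPM 33 members were detected in every library, at 5 CPM 25, and with TMM sizes 28. The count of members far lowest in replicate 4 was 8 to 10 under 4 other settings chosen after seeing the data, with TMM sizes, other folds or a mean of 10 CPM. The shares of all genes given above, such as 14.6% far lowest in replicate 4, belong to the main settings. They do not apply to these detection and far-lowest counts, which therefore show nothing particular to the members. Without length correction Kdm3a over Kdm3b was 1.01, Kmt5a over Kmt5b -3.12 and Sirt6 over Sirt7 -4.32, and with the longest transcript Kdm1a over Kdm1b was -0.75. Replicate 4 limits what can be said of Kmt2a to Kmt2d, Kdm4a, Kdm4b, Kdm6a, Kdm6b, Kmt5c and Hdac10, which had 0 to 22 reads there.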
